A study of Mus musculus with 12 samples.

Results

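The 9 genes described here encode the integrin subunits known from epidermal keratinocytes: the alpha subunits Itga2, Itga3, Itga5, Itga6 and Itgav and the beta subunits Itgb1, Itgb4, Itgb5 and Itgb6. They were matched by gene name and are 9 of the 54532 genes in the count table. Their mRNA was measured in 12 libraries of cultured mouse keratinocytes of genotype WT DP-BirA(1-584). All groups, the unwounded controls included, carried the fusion of residues 1 to 584 of desmoplakin, which anchors keratin at desmosomes, to the biotin ligase BirA. All were given calcium and doxycycline (2 µg/mL) to start differentiation and fusion expression, and a 16 h biotin pulse. Ribosome-bound RNA from a sucrose gradient was passed over neutravidin, a resin that holds biotin. What the resin held is the cortical fraction and the depleted remainder is the total fraction, so "total" is not the whole cell. Both fractions were taken from scratch-wounded cells and from cells left unwounded, which makes 4 groups with 3 libraries in each. Whether same-numbered libraries of the 2 fractions came from 1 lysate is not given in the sources used here. The main tests treat them as unpaired, and a replicate block is among the alternatives. The titles call the libraries of a group biological replicates without saying what was repeated, so p-values measure the spread between these libraries. Whether the line is a clone is not given in the sources used here.

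Integrins are pairs of an alpha and a beta subunit that span the membrane and bind extracellular matrix outside the cell and cytoskeletal linkers inside it. In resting epidermis, alpha6beta4 ties basal keratinocytes to laminin through hemidesmosomes, and alpha3beta1 and alpha2beta1 bind laminin and collagen. Keratinocytes at a wound edge are known to use alpha5beta1 and alphavbeta6, which bind fibronectin, alphavbeta5, which binds vitronectin, and alpha3beta1, which binds the laminin that the moving cells lay down. Whether the translated mRNAs of these subunits differ near the desmoplakin fusion, and after wounding, is the question the groups address.

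Library totals ran from 8980013 to 23457548 counts, and the 9 subunits together took 0.0375% to 0.0741% of them. Wounded total replicate 1 stood apart: 13117 genes had counts in it, against 14393 to 16867 in the other libraries. Of the 1063 genes expected at 10 to 20 counts there, 41.2% were at 0, against 0.607% to 24.7% in the others, so the subunit comparisons, and the list counts that move with it, are also given without it. Defining markers of the labelled cell type were present: 10 or 11 of 11 keratinocyte markers had a mean of at least 1 CPM in every group (CPM, counts scaled to a common library size with TMM factors), with Krt14 at 4230 to 10900 CPM and Krt5 at 3710 to 7640 CPM. Their summed level moved with the groups, from 11100 to 12200 CPM in unwounded total, 15600 to 15700 in unwounded cortical, 17800 to 20300 in wounded total and 21200 to 21500 in wounded cortical libraries, and its part in the results was not tested. Summed markers of fibroblasts (8 genes), melanocytes (6) and endothelial cells (5) reached at most 6.47, 2.27 and 1.87 CPM in any library. The 8 leukocyte markers summed to 18.3 to 60.6 CPM, of which Cd68 made up most, while Lyz2, Tyrobp and Itgam were at 0 in all 12 libraries. In bulk RNA, fewer cells of a type and less RNA per cell cannot be told apart.

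Among the alpha subunits, Itga3 (ENSMUSG00000001507, chromosome 11, 95044474 to 95076801, minus strand) and among the beta subunits Itgb5 (ENSMUSG00000022817, chromosome 16, 33829665 to 33949338, plus strand) are the members whose rise after wounding in the total fraction was called in all 24 alternative analyses, and Itgav (ENSMUSG00000027087, chromosome 2, 83724397 to 83806916, plus strand) is the partner of Itgb5 that was called in none of them after wounding. The stretch just upstream of each gene is shown to set these side by side, from RefSeq on GRCm38.p6, which held promoters of 7 of the 9 members (Itga6 and Itgb4 were not matched). Capitals mark GC boxes (GGGCGG or its reverse complement), and each sequence runs 5′ to 3′ on the gene's own strand.
Itga3 upstream, chr11:95076802-95076964: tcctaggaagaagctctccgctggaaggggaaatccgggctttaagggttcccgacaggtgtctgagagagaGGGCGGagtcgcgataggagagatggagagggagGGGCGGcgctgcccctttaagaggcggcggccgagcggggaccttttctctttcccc
Itgb5 upstream, chr16:33829415-33829664: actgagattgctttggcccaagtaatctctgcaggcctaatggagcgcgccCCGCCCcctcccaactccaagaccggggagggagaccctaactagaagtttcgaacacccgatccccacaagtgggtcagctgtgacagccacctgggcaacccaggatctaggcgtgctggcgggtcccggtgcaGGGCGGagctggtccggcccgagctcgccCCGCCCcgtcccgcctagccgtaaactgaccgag
Itgav upstream, chr2:83724147-83724396: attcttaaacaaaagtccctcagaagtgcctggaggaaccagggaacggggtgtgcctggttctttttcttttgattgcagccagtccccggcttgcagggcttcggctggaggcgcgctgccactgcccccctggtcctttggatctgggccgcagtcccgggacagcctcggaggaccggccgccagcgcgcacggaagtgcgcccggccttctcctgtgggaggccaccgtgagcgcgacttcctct
The Itgb5 stretch held 3 GC boxes, the 163 bases of Itga3 that end at its annotated start held 2, and the Itgav stretch held 0, at GC contents of 65.2%, 62.6% and 64.4%. In windows of 250 bases, where Itga3 had 3, a GC box stood in 32.7% of all 32851 RefSeq promoters. Itga5 and Itgb1, called in neither wound comparison, had 2 and 1 in such windows. Itga2 and both Itgb6 promoters had 0, and a second Itga3 promoter had 1. Itgb6 had a log2 fold change of 0.63 after wounding in the total fraction, short of a call (edgeR adjusted p = 0.054). The AP-1 letters TGANTCA, searched on both strands, were in none of the members' promoters and in 6.75% of all promoters. A match or its absence describes these letters in this window only.

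Per length, 5 subunits were abundant and 4 were not. In unwounded total libraries the order of mean FPKM (fragments scaled to gene length and library size) was Itga3 20.8 ± 2.19 (SD, n = 3), Itgb1 20.6 ± 1.35, Itgb5 18.0 ± 1.02, Itgb4 10.8 ± 0.511, Itga6 5.64 ± 0.619, Itgav 1.96 ± 0.189, Itgb6 1.71 ± 0.196, Itga5 0.315 ± 0.0528 and Itga2 0.0376 ± 0.0181. The ranges of Itga3 and Itgb1 overlapped, as did those of Itgav and Itgb6, and all other neighbours were apart. Itga3, the laminin-binding partner of beta1, stayed highest in mean in all 4 groups and made up 70.2% to 81.2% of the FPKM of the 5 alpha subunits. Itgb5 passed Itgb1 in the wounded total group, at 26.9 ± 1.08 against 24.2 ± 2.09 FPKM, with overlapping ranges. Itgb6 passed Itgav there, at 2.7 ± 0.268 against 1.85 ± 0.351 FPKM, without overlap. Summed over the subunits, beta exceeded alpha FPKM in all 12 libraries, by 1.19 to 1.98 times, with the highest value in wounded total replicate 1.

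**Figure D1:**
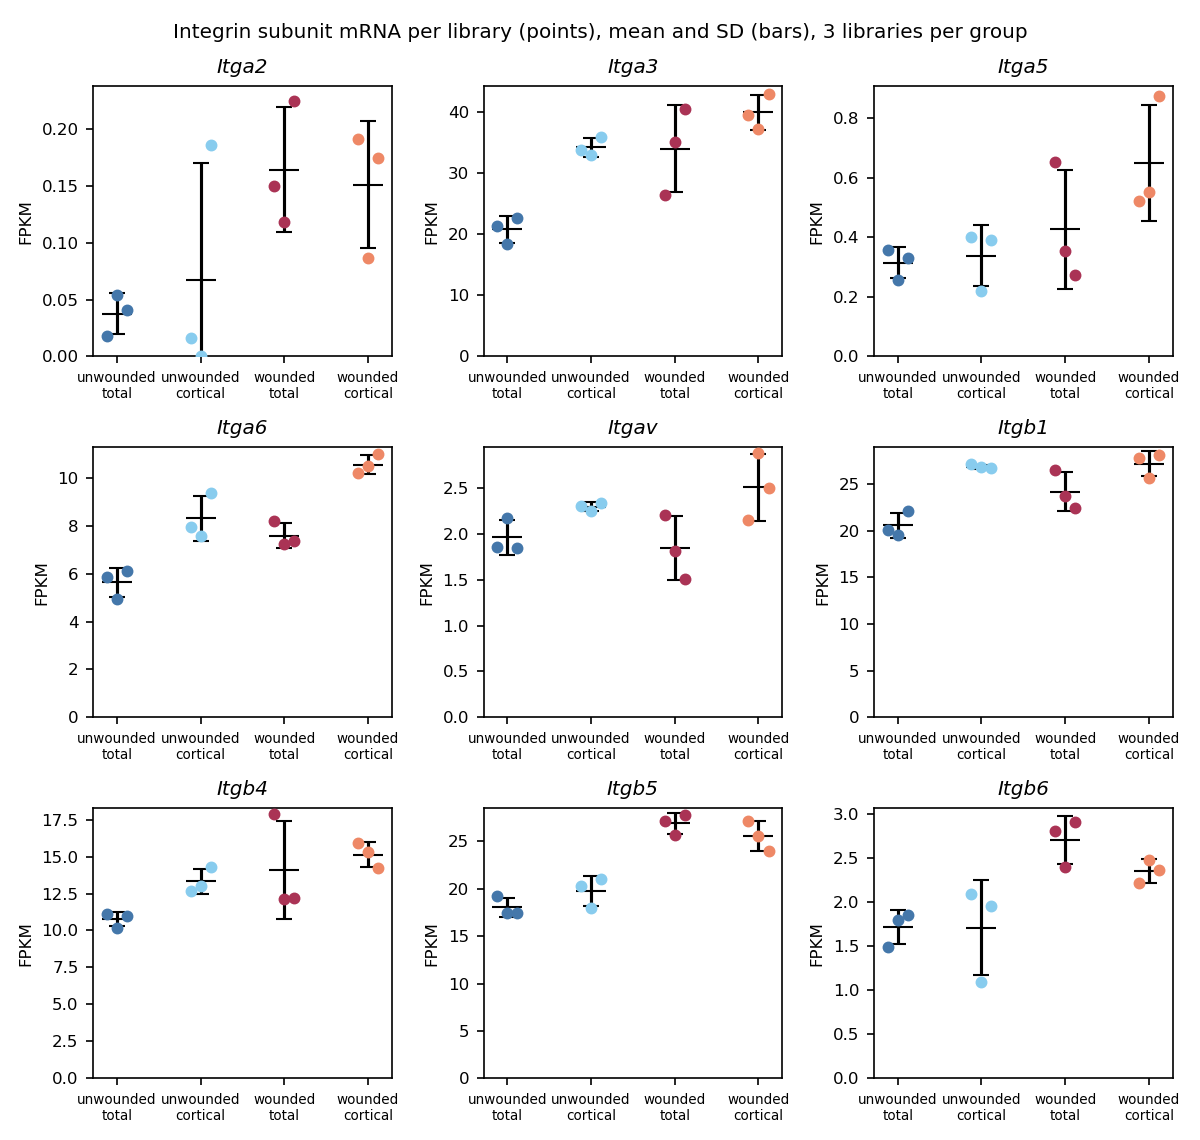
FPKM of each subunit (vertical axis, own scale per panel, from 0) in the 12 libraries, by group; points are libraries, long bars the mean and whiskers the SD of 3 libraries. Itga3 lies lowest in the unwounded total group (18.4 to 22.7), and Itgb5 separates wounded libraries (24.0 to 27.8) from unwounded ones (17.4 to 21.0) in both fractions.

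Itga2 and Itga5, the collagen-binding and fibronectin-binding partners of beta1, were near the limit of these libraries. Itga2 (ENSMUSG00000015533, chromosome 13, 114833081 to 114932100) had 3, 7 and 5 counts in unwounded total replicates 1 to 3 and 3, 0 and 13 in unwounded cortical ones. In wounded libraries it had 18, 15 and 26 counts (total) and 34, 10 and 26 (cortical). It passed the filter on low counts through the wounded libraries, so its place among the tested genes is not independent of a wound difference. Itga5 (ENSMUSG00000000555, chromosome 15, 103344286 to 103366763) had 23 to 41 counts in unwounded total, 13 to 51 in unwounded cortical, 22 to 54 in wounded total and 44 to 90 in wounded cortical libraries. Neither was called in any comparison by the edgeR test, with wide intervals (with voom and quality weights Itga2 passed after wounding in the total fraction, 2.28, adjusted p = 0.0463): for wounding in the total fraction the log2 fold change was 2.08 (95% interval -0.31 to 4.47) for Itga2 and 0.40 (-0.67 to 1.48) for Itga5. In the cortical fraction the values were 1.28 (-1.08 to 3.64) and 0.96 (-0.13 to 2.04).

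3 of the abundant laminin and beta1-class subunits were higher in the cortical than in the total fraction of unwounded cells: Itga3, Itga6 and Itgb1. Itga3 had 123, 108 and 131 CPM in the total libraries and 195, 189 and 206 in the cortical ones, a gap with no overlap. Its log2 fold change was 0.70 (SE 0.13, edgeR quasi-likelihood test, adjusted p = 0.00253). Itga6 (ENSMUSG00000027111, chromosome 2, 71745616 to 71858416), the alpha subunit of hemidesmosomes, had 53.8, 45.7 and 55.8 CPM in total and 72.4, 68.8 and 84.7 CPM in cortical libraries. The cortical libraries again all lay above the total ones, and the log2 fold change was 0.54 (SE 0.11, edgeR adjusted p = 0.00428). Itgb1 (ENSMUSG00000025809, chromosome 8, 128685654 to 128733200), the common beta partner, had 83.3, 81.7 and 91.3 CPM in total and 112, 110 and 109 CPM in cortical libraries, a log2 fold change of 0.37 (SE 0.10, edgeR adjusted p = 0.0172).

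These 3 calls among 9 subunits, all higher, compare with 14.2% of the 13571 tested genes called in either direction, 6.62% called higher and 7.59% called lower. The median log2 fold change of the 9 was 0.28, against 0.002 over all tested genes. Itgb4 (ENSMUSG00000020758, chromosome 11, 115974709 to 116008412), the beta4 partner of alpha6, had 73.3 to 79.4 CPM in total and 90.1 to 100 CPM in cortical libraries (0.28, SE 0.13, adjusted p = 0.175 in edgeR). Itgav had 20.1 to 24.0 and 24.2 to 25.1 CPM (0.21, SE 0.16, edgeR adjusted p = 0.496). The libraries of the 2 fractions did not overlap for 5 subunits, all higher in the cortical fraction, as for 17.1% of tested genes in that direction and 36.2% in either. Itgb5 (0.11, 95% interval -0.10 to 0.32) and Itgb6 (-0.02, -0.47 to 0.44), the partners of alphav, were not called. The Itgb1 call was lost without unwounded total replicate 1 or 2 or any 1 of the unwounded cortical replicates (adjusted p from 0.0515 to 0.0802), and without wounded total replicate 1 Itgb4 was called as well (0.28, adjusted p = 0.0219).

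In wounded cells only Itga6 of the 9 subunits was called between the fractions by the edgeR test, against 15.7% of tested genes called, 7.62% higher and 8.03% lower. Itga6 had 73.6, 65.2 and 66.1 CPM in the total and 93.7, 96.0 and 102 CPM in the cortical libraries, with no overlap (log2 fold change 0.51, SE 0.11, edgeR adjusted p = 0.00603). It was the 1 subunit of 9 without overlap, which 29.2% of tested genes showed in either direction and 16.2% as higher. Itga3 had 150, 201 and 230 CPM in total and 229, 216 and 251 CPM in cortical libraries, so that the groups overlapped (0.26, SE 0.13, edgeR adjusted p = 0.211). The low value of 150 CPM was in wounded total replicate 1. Itgav had 23.7, 19.5 and 16.1 against 23.4, 31.3 and 27.4 CPM (0.47, SE 0.16, edgeR adjusted p = 0.0614), and Itgb1 had 91.0 to 108 against 106 to 117 CPM (0.20, SE 0.10, edgeR adjusted p = 0.19). The median of the 9 was 0.20, against 0.042 over all tested genes. Without wounded total replicate 1, 4 subunits were called higher, Itga6 with Itgav (0.61, adjusted p = 0.00745), Itgb1 (0.27, 0.0451) and Itgb4 (0.34, 0.0124). With the trend on gene length removed from each library, the Itga6 call was lost (0.26, edgeR adjusted p = 0.119).

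Wounding raised Itga3, Itga6 and Itgb5 in the total fraction. Itgb5, the alphav partner that binds vitronectin, had 69.3, 63.9 and 62.4 CPM in unwounded and 96.5, 91.4 and 98.1 CPM in wounded libraries. All wounded libraries lay above all unwounded ones, and the log2 fold change was 0.55 (SE 0.10, edgeR adjusted p = 0.00129). Itga3 had 123, 108 and 131 CPM in unwounded and 150, 201 and 230 CPM in wounded libraries (0.68, SE 0.13, edgeR adjusted p = 0.00255). Itga6 went from 51.8 ± 5.35 to 68.3 ± 4.62 CPM (SD, n = 3; log2 fold change 0.40, SE 0.11, edgeR adjusted p = 0.0228). These 3 of 9, all higher, stand against 15.6% of tested genes called, 8.39% higher and 7.2% lower, and the median of the 9 was 0.40, against -0.026 over all tested genes. The 9 include Itga2, which passed the filter on low counts through the wounded libraries, so this median is not independent of a wound difference.

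Itgb6 (ENSMUSG00000026971, chromosome 2, 60598292 to 60722643), the partner of alphav that binds fibronectin and latent TGF-beta, had 10.7, 13.2 and 13.3 CPM in unwounded and 19.9, 17.1 and 20.5 CPM in wounded total libraries. The groups did not overlap, but the log2 fold change of 0.63 (SE 0.21) had an edgeR adjusted p of 0.054. Itgb4 had 79.4, 73.3 and 78.0 against 125, 85.1 and 84.8 CPM (0.36, SE 0.13, edgeR adjusted p = 0.0781), with the high value in wounded total replicate 1. Itgav went the other way in its mean, from 21.5 ± 2.22 to 19.8 ± 3.78 CPM, with overlapping libraries (-0.12, 95% interval -0.46 to 0.22). Itgb1 had 85.5 ± 5.13 and 98.5 ± 8.61 CPM (0.20, SE 0.10, edgeR adjusted p = 0.171). Leaving out Itga2, whose counts in wounded libraries took it past the filter, the wounded libraries all lay above the unwounded ones for 5 of 8 subunits, as for 14.5% of tested genes, with 32.1% in either direction. The Itga6 call was lost without unwounded total replicate 1 (adjusted p = 0.0642) or 2 (0.132), with only the compared groups in the fit (0.41, 0.0701) and with library-size scaling (0.32, 0.164). Itgb6 passed in 10 of 24 alternatives, among them DESeq2 (0.66, 0.0246), voom (0.63, 0.00524) and the fits without wounded total replicate 1 (0.60, 0.0482) or unwounded cortical replicate 2 (0.63, 0.0204). Itgb4 passed in 4, with DESeq2 (0.39, 0.0422), with the length trend removed (0.42, 0.0175, or 0.41, 0.0197 with the replicate block) and without wounded total replicate 3 (0.45, 0.0472). With 1 library left out the Itgb4 log2 fold change ran from 0.14 to 0.45, and it was lowest without wounded total replicate 1.

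In the cortical fraction Itgb5 was the subunit called after wounding. It had 72.5, 64.4 and 74.3 CPM in unwounded and 98.1, 92.1 and 86.9 CPM in wounded libraries, with no overlap (log2 fold change 0.39, SE 0.10, edgeR adjusted p = 0.044). That 1 of 9 compares with 2.48% of tested genes called, 1.6% higher and 0.884% lower. Itga6 had 75.3 ± 8.34 and 97.1 ± 4.17 CPM (SD, n = 3; 0.37, SE 0.11, edgeR adjusted p = 0.0882), and Itga3 196 ± 8.38 and 232 ± 17.8 CPM (0.24, SE 0.13, edgeR adjusted p = 0.377). Itgb1 lay at 110 ± 1.32 and 113 ± 5.74 CPM (0.03, 95% interval -0.17 to 0.24). For 6 of 9 subunits all wounded cortical libraries lay above all unwounded ones, against 15.4% of tested genes and 26.9% in either direction. The Itgb5 call sat close to the threshold: it was lost in 18 of 24 alternatives, including without any 1 of 11 libraries (adjusted p from 0.0535 to 0.179), and without wounded total replicate 1 Itga6 was called beside it (0.37, 0.0228).

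**Figure D2:**
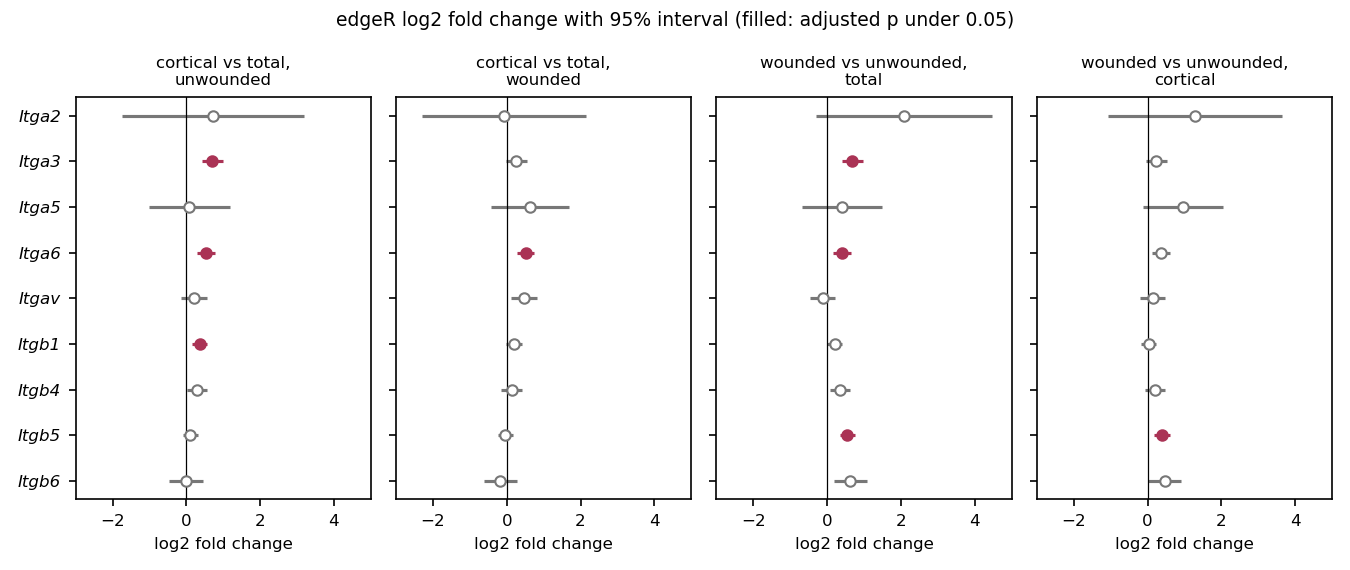
Log2 fold change of each subunit (horizontal axis) with its 95% interval in the 4 comparisons; filled points have an edgeR adjusted p under 0.05. Itgb5 is filled in both wound comparisons and in neither fraction comparison, Itga6 in both fraction comparisons, and the intervals of Itga2 and Itga5 are the widest of the 9.

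Whether the cortical-to-total ratio of a subunit differed between wounded and unwounded cells was tested as an interaction. It was called for 0 of 9 subunits by edgeR and for 0 by DESeq2, against 0.125% of tested genes called, 0.0221% higher and 0.103% lower. An unadjusted p under 0.05 was found for 1 of the 9 and for 9.05% of tested genes. That subunit was Itga3, whose ratio was lower in wounded cells (log2 difference -0.44, SE 0.19, 95% interval -0.84 to -0.04, edgeR adjusted p = 0.501). Without wounded total replicate 1 it was -0.59 (adjusted p = 0.0174), and with voom and library quality weights -0.51 (0.0141). For Itga6 the interaction was -0.03 (95% interval -0.36 to 0.30) and for Itgb5 -0.16 (-0.45 to 0.14). The 4 comparisons share libraries, so their values for 1 subunit are not independent.

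Because alpha and beta subunits act as pairs, the FPKM ratio of the 2 subunits of a receptor was taken within each library, which does not depend on the scaling of libraries. Of 10 ratio tests, 3 had an adjusted p under 0.05, and Itgb1/Itga2 could not be tested because Itga2 was at 0 in unwounded cortical replicate 2. Itgb5 was 8.04 to 10.3 times Itgav in unwounded total and 12.3 to 18.4 times in wounded total libraries, and 8.03 to 8.95 and 8.89 to 12.7 times in the cortical ones. With labels permuted within fractions, the mean log2 ratio was higher by 0.47 after wounding (exact permutation test, two-sided, p = 0.01, adjusted p = 0.0333, 6 against 6 libraries). The difference was 0.68 in the total and 0.26 in the cortical fraction. The wound tests of ratios count libraries of the 2 fractions as separate units. If same-numbered libraries of the 2 fractions came from 1 lysate, the 6 libraries of an arm were not independent and p may be too small.

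Itgb6 was 0.801 to 0.998 times Itgav in unwounded total libraries and 1.27 to 1.92 times in wounded total ones, with 0.485 to 0.906 and 0.862 to 1.03 times in the cortical fraction. Its log2 ratio was higher by 0.58 after wounding (exact permutation p = 0.01, adjusted p = 0.0333). This ratio and Itgb5/Itgav share Itgav as denominator, so the 2 tests are not independent. Both ratios were highest in wounded total replicate 3 (1.92 and 18.4), where Itgav was lowest (1.51 FPKM). Itgb1/Itga3 was 0.945 to 1.06 in unwounded total and 0.554 to 1.00 in wounded total libraries, where replicate 1 gave the 1.00 (-0.33 over both fractions, exact permutation p = 0.02, adjusted p = 0.05, not under the threshold). Between fractions, Itgb4/Itga6 was 1.80 to 2.06 in unwounded total and 1.52 to 1.71 in unwounded cortical libraries, and 1.65 to 2.19 and 1.29 to 1.55 in wounded ones. That ratio was lower in the cortical fraction, at the smallest p that 400 arrangements allow (log2 difference -0.30, exact permutation p = 0.005, adjusted p = 0.0333). Without wounded total replicate 1 the same 3 passed (exact permutation adjusted p = 0.025 each), and Itgb1/Itga3 (-0.45, 0.025) and Itgb4/Itga6 after wounding (-0.19, 0.04) passed too. All 3 were lost without unwounded total replicate 2, unwounded cortical replicate 2, or wounded cortical replicate 1 or 3, and Itgb6/Itgav also without wounded cortical replicate 2 (adjusted p from 0.05 to 0.075).

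**Figure D3:**
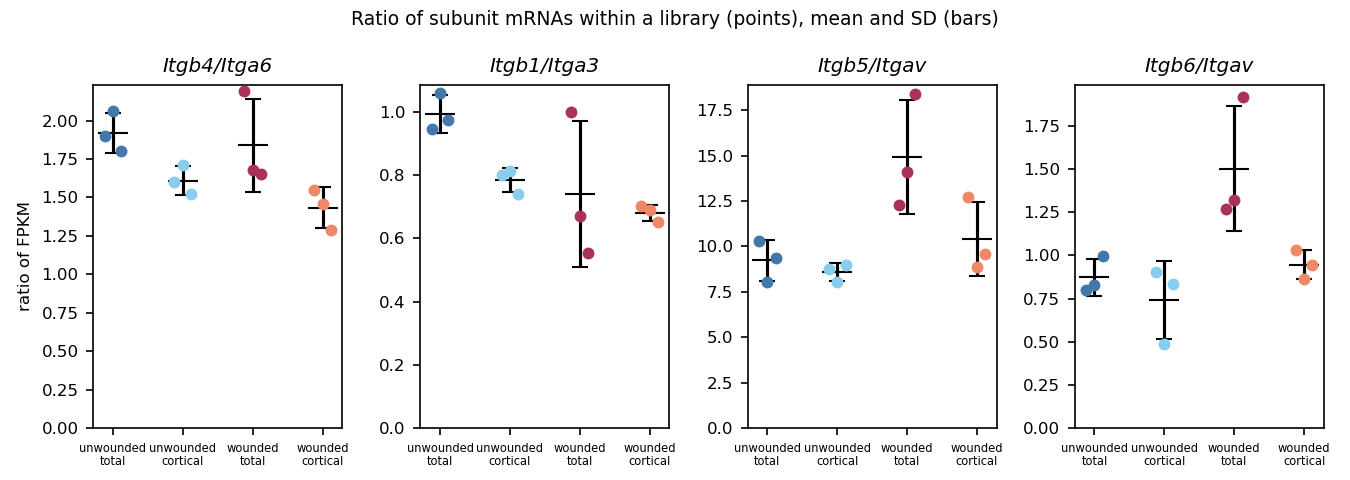
Ratio of the FPKM of a beta to an alpha subunit within each library (vertical axis from 0), by group; points are libraries, bars the mean and SD of 3 libraries. Itgb5/Itgav and Itgb6/Itgav are highest in mean in wounded total libraries (12.3 to 18.4 and 1.27 to 1.92), and Itgb4/Itga6 is lower, without overlap, in each cortical group than in its total group.

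Of 18 other integrin subunits, 6 had enough counts to be tested, 4 had 0 counts in all libraries and 8 had 1 to 50 counts over all 12. Itgb7, known as the leukocyte partner of alpha4 and alphaE, rose after wounding in the total fraction from 15.9 to 19.9 CPM to 35.8 to 47.5 CPM, without overlap (log2 fold change 1.16, SE 0.15, edgeR adjusted p = 1.28e-04). It was also called in the cortical fraction (0.71, SE 0.15, edgeR adjusted p = 0.0176), a call lost without unwounded cortical replicate 2 or 3 or any 1 wounded cortical replicate (0.0606 to 0.0957), and between fractions of unwounded cells (0.54, SE 0.15, 0.0244), lost without unwounded total replicate 1 or 2 or unwounded cortical replicate 1 (0.0708 to 0.156). Itga2b, the alpha subunit of the platelet fibrinogen receptor, rose in the total fraction from 22.7 ± 3.22 to 42.6 ± 12.5 CPM (SD, n = 3; 0.91, SE 0.20, edgeR adjusted p = 0.00559), with its lowest wounded value of 28.5 CPM in replicate 1. The sum of the 8 leukocyte markers also moved with wounding, from 22.4 to 26.9 CPM in unwounded total to 44.5 to 60.6 CPM in wounded total libraries. Cd68 made up most of that sum (mean 32.1 CPM over all 12 libraries), and the next highest marker, Itgb2, had a mean of 1.66 CPM. The part of these markers in the results was not tested. Itga4 had 0 counts in all libraries, which allows at most 0.0138 CPM by counting error alone, Itgb3 had 2 counts and Itgae 86 counts in all.

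Ligands of these integrins were called in 1 direction only. Of 15 tested of 19 listed ligands, 4 were higher and 0 lower in the cortical fraction of unwounded cells, 5 and 0 in wounded cells, and 4 and 0 after wounding in the total and 3 and 0 in the cortical fraction (median log2 fold changes 0.48, 0.36, -0.06 and 0.27). Over all tested genes 14.2%, 15.7%, 15.6% and 2.48% were called in these 4 comparisons, with 6.62%, 7.62%, 8.39% and 1.6% called higher. Lamb3, a chain of laminin-332 to which alpha3beta1 and alpha6beta4 bind, went from 85.0 ± 11.9 CPM in unwounded total to 205 ± 23.9 in wounded total libraries (1.27, SE 0.12, edgeR adjusted p = 6.14e-06), and was at 157 ± 12.9 and 251 ± 2.99 CPM in the cortical groups. Lama5, a chain of laminin-511, was higher in the cortical fraction of wounded cells, 238 ± 2.31 against 143 ± 17.6 CPM (0.73, SE 0.11, edgeR adjusted p = 7.23e-04). Tgfb1, whose latent form alphavbeta6 activates, rose after wounding from 71.1 ± 3.77 to 109 ± 26.5 CPM in the total fraction (0.62, SE 0.14, edgeR adjusted p = 0.00801). The 5 ligands called between fractions of wounded cells became 3 without wounded total replicate 2 and 2 without wounded total replicate 3 or wounded cortical replicate 1, and ran from 2 to 9 over the other settings. Fn1, fibronectin, stayed at group means of 0.899 to 1.95 CPM.

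Hemidesmosome partners of alpha6beta4 were higher in the cortical fraction for 3 of 4 listed genes, against 6.62% (unwounded) and 7.62% (wounded) of all tested genes. These were Plec, Dst and Col17a1, in unwounded and in wounded cells, while Cd151, the tetraspanin of laminin-binding integrins, was not called in any comparison (33.2 to 40.1 CPM in group means). Plec, plectin, which links beta4 to keratin, had 40.3 ± 4.45 CPM in unwounded total and 104 ± 5.61 in unwounded cortical libraries (1.37, SE 0.11, edgeR adjusted p = 5.3e-07), with 39.2 ± 2.18 and 101 ± 6.31 CPM in wounded ones. Its wound difference was -0.04 (SE 0.11) in the total and -0.05 (SE 0.11) in the cortical fraction. Col17a1, the transmembrane collagen of hemidesmosomes, had 131 ± 13.2 CPM in the total and 206 ± 5.65 in the cortical fraction of unwounded cells, with 201 ± 32.4 and 337 ± 3.82 CPM in wounded cells, and was called higher in all 4 comparisons and in all 24 alternatives of each. Col17a1 is also among the listed ligands, so each ligand count above includes it and the 2 lists are not independent. Dst, dystonin, rose after wounding from 609 ± 74.7 to 1380 ± 101 CPM in the total fraction (1.18, SE 0.11, edgeR adjusted p = 4.57e-06). Its difference between fractions of wounded cells was 0.50 (SE 0.11, edgeR adjusted p = 0.00564) and -0.05 with the gene length trend removed.

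mRNAs of proteins at the integrin tails were called in both directions, except after wounding in the cortical fraction. Of 30 tested of 33, 7 were higher and 3 lower in the cortical fraction of unwounded cells, 5 and 2 in wounded cells, and 5 and 1 after wounding in the total and 5 and 0 in the cortical fraction. In the same order, the shares of all tested genes called higher and lower were 6.62% and 7.59%, 7.62% and 8.03%, 8.39% and 7.2%, and 1.6% and 0.884%. Tns4, a tensin that binds beta tails, rose after wounding from 126 ± 15.1 to 353 ± 43.8 CPM in the total fraction (1.48, SE 0.12, edgeR adjusted p = 6.66e-07) and from 187 ± 2.54 to 363 ± 14.7 CPM in the cortical one (0.96, SE 0.11, 2.49e-04). Actn4, an actin crosslinker, rose from 163 ± 11.8 to 296 ± 14.5 CPM in the total fraction (0.86, SE 0.10, edgeR adjusted p = 3.03e-05). Kank1, which binds talin, was higher in the cortical fraction of both unwounded (0.87, SE 0.14, edgeR adjusted p = 9.7e-04) and wounded cells (0.83, SE 0.14, 0.00136). Itgb1bp1, an inhibitor at the beta1 tail, was lower in the cortical fraction of unwounded cells, 22.5 ± 4.6 against 37.6 ± 3.73 CPM (-0.74, SE 0.16, edgeR adjusted p = 0.00574). The activators talin and kindlin-1 showed no call after wounding: Tln1 had 37.3 ± 2.22 and 37.6 ± 4.77 CPM in the total groups, and Fermt1 10.1 ± 0.945 and 8.8 ± 1.18 CPM. Between fractions of wounded cells Tln1 was called higher in the cortical one in 16 of 24 alternatives (0.26 to 0.74). In unwounded cells it was called in 4 of 24 (0.17 to 0.55), and Fermt1 was called in 0 in either case. The count of 7 between fractions of wounded cells became 13 without wounded total replicate 1, 3 without wounded total or wounded cortical replicate 2, and 4 without wounded total replicate 3 or wounded cortical replicate 1 or 3. The count of 10 in unwounded cells became 6 without unwounded cortical replicate 1 or 2, and that of 5 after wounding in the cortical fraction became 2 without any 1 cortical library, unwounded total replicate 1 or wounded total replicate 2.

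Traffic and membrane partners split in direction. Of 12 tested of 14 genes of integrin traffic, 3 were higher and 4 lower in the cortical fraction of unwounded cells, 0 and 3 in wounded cells, and 2 and 1 after wounding in the total and 0 and 0 in the cortical fraction. Among all tested genes, 14.2%, 15.7%, 15.6% and 2.48% were called in these 4 comparisons. Rab11fip1, an effector of recycling by Rab11 and Rab25, rose after wounding from 27.3 ± 0.184 to 53.8 ± 5.17 CPM in the total fraction (0.98, SE 0.12, edgeR adjusted p = 5.13e-05), and Arf6, a GTPase of recycling, fell from 86.8 ± 4.61 to 52.6 ± 7.32 CPM (-0.72, SE 0.13, 0.00146). Of 12 membrane partners, 0 were higher and 1 lower in the cortical fraction of unwounded and of wounded cells, in both cases Bsg, and 3 were higher and 2 lower after wounding in the total fraction, with 1 and 0 in the cortical one. Set beside the same shares of all tested genes, 1 of 12 called between fractions is not above 14.2% or 15.7%. Sdc4, a heparan sulfate coreceptor of alpha5beta1, was called after wounding in the total fraction (0.62, SE 0.11, edgeR adjusted p = 0.00115) and in the cortical one (0.53, SE 0.11, 0.0156), where the call was lost without unwounded cortical replicate 1 or 3 or any 1 wounded cortical replicate (0.0522 to 0.0962). The traffic count of 3 between fractions of wounded cells became 5 without wounded total replicate 1 and 1 without wounded total replicate 2 or wounded cortical replicate 1. The traffic count of 7 in unwounded cells became 4 without unwounded total replicate 1 or 2, and without wounded total replicate 1 the counts after wounding became 6 (from 3) in the total and 3 (from 0) in the cortical fraction. The 5 membrane partners called after wounding in the total fraction became 1 without unwounded total replicate 1 or wounded total replicate 3 and 2 without replicate 2 of either total group. Without wounded total replicate 1 the membrane partners called numbered 2 and 3 between fractions of unwounded and wounded cells and 3 after wounding in the cortical fraction, where the 1 became 0 without unwounded cortical replicate 1 or 3 or any 1 wounded cortical replicate.

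Krt6b and Krt16, keratins known to rise in wounded epidermis, did so here. Of 17 tested of 22 listed wound and migration genes, 5 were higher and 0 lower after wounding in the total and 3 and 0 in the cortical fraction. Over all tested genes 8.39% and 7.2% were called higher and lower in the total and 1.6% and 0.884% in the cortical fraction. The list as a whole did not shift: its median log2 fold change was 0.03 (total) and 0.05 (cortical), with 9 of 17 above 0 in each. Krt6b had 10.9 ± 1.73 CPM in the total and 26.8 ± 4.25 in the cortical fraction of unwounded cells, then 75.9 ± 14.9 and 75.8 ± 6.28 CPM in wounded cells, so that wounding changed it by 2.80 (SE 0.17, edgeR adjusted p = 1.79e-07) in the total fraction. Krt16 had 169 ± 7.82, 308 ± 10.9, 578 ± 91 and 569 ± 35.3 CPM in the same order (1.77, SE 0.12, 2.37e-07 in the total fraction). Both were called in the interaction of fraction and wounding (Krt6b -1.30, SE 0.23, edgeR adjusted p = 0.0325; Krt16 -0.89, SE 0.16, 0.0396), in 11 and 9 of 23 alternatives. Without 1 library other than unwounded total replicate 1, unwounded cortical replicate 2 or wounded total replicate 1 neither passed (0.0649 to 0.21). Keratin genes are close paralogs, and how reads shared between them were counted is not given in the sources used here.

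**Figure D4:**
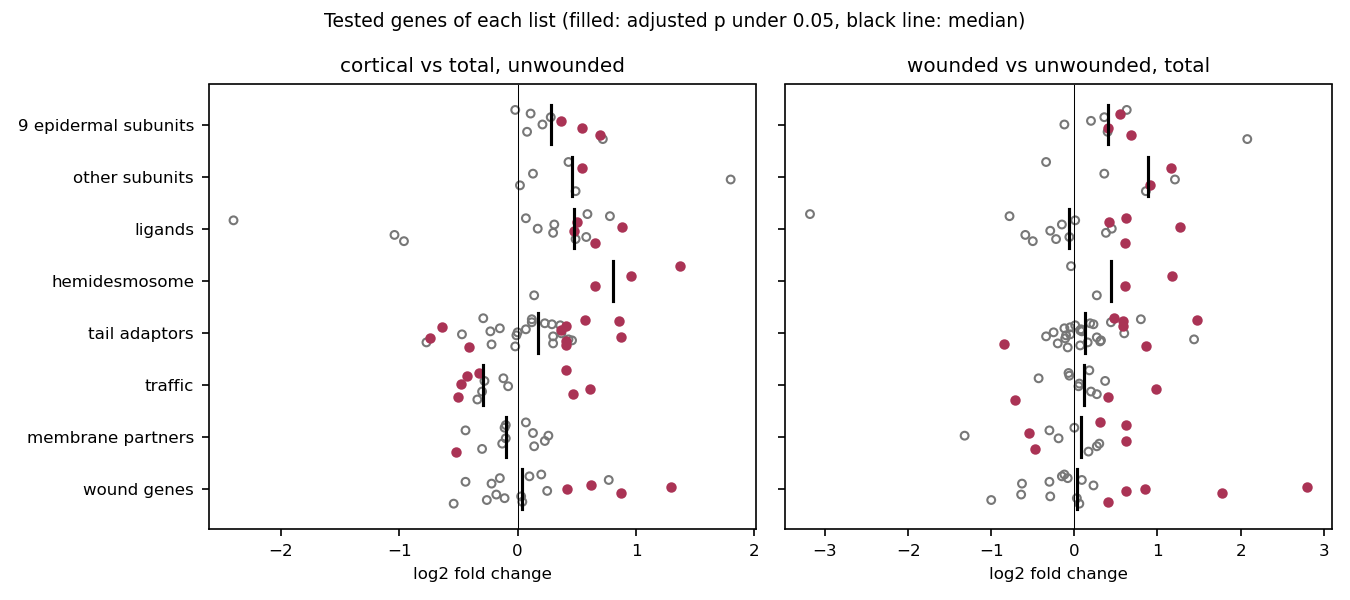
Log2 fold change (horizontal axis) of every tested gene of 8 gene lists in the comparison of fractions in unwounded cells (left) and of wounding in the total fraction (right); filled points have an edgeR adjusted p under 0.05 and black lines are list medians. The medians of the 9 subunits lie at 0.28 and 0.40, and those of the hemidesmosome partners at 0.81 and 0.44. The 9 include Itga2, which passed the filter on low counts through the wounded libraries.

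Genes whose profile over the 12 libraries was nearest to a subunit, by the root mean square difference of mean-centred log2 CPM among 8855 protein-coding candidates, were not integrin subunits. For Itga3 they were Atp6v1a (0.11), Amotl1 (0.14) and Pim1 (0.14), for Itga6 Diaph1 (0.09), Copg2 (0.10) and Ptpn13 (0.11), and for Itgb1 Vps35 (0.06) and Ankfy1 (0.07). For Itgb4 they were Dennd2c (0.08), S1pr2 (0.09) and Smc5 (0.10), and for Itgb5 Sidt2 and Acadl (0.09 each). Itgav lay nearest to Nedd4 (0.11), Slc25a17 (0.12) and Serpinb9b (0.13), and Itgb6 to Cnp (0.16), Pstk (0.17) and E4f1 (0.19). The sparse subunits lay farther from their nearest genes: Itga5 lay 0.28 from Kif13b and 0.30 from Lama3, and Itga2 0.80 from Dbp. Their own spread over the libraries was also larger, an SD of 0.53 for Itga5 and 1.24 for Itga2. The other subunits had 0.17 (Itgb1) to 0.38 (Itga3), so a small distance can also reflect a flat profile. These distances describe 12 libraries that share depth and treatment, and carry no test.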

How the data were processed

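The deposited count table holds raw fragment counts per gene, and the deposited FPKM table holds the same counts divided by gene length and a factor for each library by the authors, with 1 column per library in both. Per the labels, RNA was poly-A selected, copied from random hexamers and sequenced without strand information. The submitters' processing notes name CASAVA, HISAT2 and genome build mm10. The counting tool and annotation are not given in the sources used here. No per-sample column stayed unused (0).

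Counts were tested in R 4.3.3 with edgeR 4.0.16. Genes were filtered with filterByExpr, scaled with TMM factors (0.831 to 1.10), and fitted in 1 quasi-likelihood model with a mean for each of the 4 groups over all 12 libraries. Each of 5 contrasts was adjusted by Benjamini-Hochberg over 13571 genes at 0.05. CPM are counts after TMM scaling to a common library size. Subunit ratios came from deposited FPKM and were tested by exact permutation within fraction or treatment (400 arrangements). They were adjusted over 10 tests, not the 12 planned, since Itga2 was at 0 in 1 library.

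The subunits, the gene lists and the tests were chosen with earlier results of these data known. Beside the 9 subunits, the text names genes from this rule: up to 3 called members per list and contrast with the largest change and a mean of at least 50 counts, Plec, Col17a1, Tln1 and Fermt1 whatever their test, and the 3 nearest genes of each subunit with a mean of at least 100 counts. Some genes that this rule names are not reported here. Fn1, Cd151, Itga4, Itgae, Itgb3 and the markers named were added after their values were seen. Alternatives used DESeq2 1.42.0, limma 3.58.1 with voom or on log2 FPKM plus 1 or 0.1, other scalings and filters, a gene length trend removed by loess (span 0.5), a replicate block and leaving out each library. The scripts were tested on simulated data. With 200 changed genes, 4.57% of edgeR calls and 10.2% of DESeq2 calls were false. With only a gene length bias simulated, edgeR called 1316 of 13069 genes, and 0 with the length trend removed. The size of that bias was set, not taken from these data. Figures used Python 3.11.15 and matplotlib 3.10.9. Intervals are 95% and the limit for a count of 0 rests on 3 counts. Both cover what they are computed from, not the handling of cells.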

Additional observations from a re-analysis of the deposited data

How the results depend on the processing

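Scaling by library size alone moved the median of all genes by 0.19 (unwounded) and 0.21 (wounded) between fractions and by -0.08 after wounding in the total fraction, and the changes in the text are relative to that median. The share of higher among called genes moved with it from 46.6% to 77.1%, from 48.7% to 80.9%, from 53.8% to 39.1% and, after wounding in the cortical fraction, from 64.4% to 54.3% (53.5% by DESeq2). Over all genes, leaving out wounded total replicate 1 gave 3151, 3475, 3502, 1276 and 413 calls in the 5 contrasts, against 1928, 2124, 2116, 337 and 17. Voom gave 3708, 4441, 5206, 1316 and 855, the 2 groups alone 3014, 970, 1175 and 1423 (with no interaction), and DESeq2 736 and no filter 559 after wounding in the cortical fraction, with 72 and 138 interactions. Library size gave 199 there and 11 interactions, and the block and both FPKM fits 10 interactions each. Between fractions of wounded cells the length trend removed gave 1323 (35.7% higher), or 1222 with the block (35.6%), and the FPKM fits 37.9% and 38.3% higher. The count of subunits called between fractions of unwounded cells stayed at 2 to 4 in all 24 alternatives. In wounded cells the count of 1 became 4 with library size or voom with quality weights and 0 with the gene length trend removed, with or without the replicate block, and ran from 1 to 4 with 1 library left out. After wounding in the total fraction the count of 3 became 5 with DESeq2, voom or the length trend removed, with or without the block, and 2 to 4 with 1 library left out. Those added were Itgb4 and Itgb6 with DESeq2 or the length trend removed, but Itga2 and Itgb6 with voom. Itga2 passed the filter on low counts through the wounded libraries, so the voom count is not independent of a wound difference. In the cortical fraction the count of 1 became 0 with RLE, library size, no filter, FPKM plus 1 or plus 0.1, and the length trend removed with the replicate block, 2 with the length trend removed or voom, 3 with the 2 groups alone, and 0 to 2 with 1 library left out. The interaction count of 0 became 1 with voom and 0 to 1 with 1 library left out. Ratios called between fractions were 1, and 2 with FPKM plus 1 or 0 to 2 with 1 library left out, and after wounding 2, or 0 to 4. Deviations of same-numbered libraries correlated by -0.0308 to 0.219 across 10386 genes. The highest, 0.15 and 0.219, were those of replicates 1 and 2 of the total groups, each best with its own number, and no comparison had all 3 pairs over 0.1. The replicate block gave 0 subunits called after wounding in the cortical fraction (Itgb5 adjusted p = 0.056), 0 ratios in each ratio comparison, where the 3 differences kept their size (0.47, 0.58 and -0.30) at the smallest p that 64 arrangements allow, 0.0312 (0.104 adjusted), so that this test could not call them, and Krt6b and Krt16 interactions at 0.0818 and 0.0974. Values that changed sign were not called in either setting, except Dst. Between fractions of unwounded cells, Itgb6 was 0.01 with RLE and DESeq2, 0.17 with library size and 0.10 with voom (-0.21 to 0.22 with 1 library left out), Itgav -0.01 with the length trend removed, Itga2 -0.03 with that and the block and -0.22 with voom (-1.86 to 1.31), and Itga5 ran from -0.08 to 0.31. In wounded cells, library size gave Itga2 0.14, Itgb5 0.17 and Itgb6 0.03, voom gave Itga2 0.21 (-0.29 to 0.20 with 1 library left out), and the length trend removed gave Itgb4 -0.05 (-0.04 with the block) and Dst -0.05 (-0.05). After wounding in the total fraction, Tln1 was -0.07 with library size and -0.11 with voom (-0.08 to 0.10), Plec 0.08 with the length trend removed, with or without the block (-0.13 to 0.04), and Itga5 -0.01 with voom (-0.04 to 0.63). In the cortical fraction Itgb1 was -0.02 with library size. The Itgb1/Itga5 ratio between fractions was 0.15 with FPKM plus 1 (-0.23 to 0.02 with 1 library left out). Traffic genes called between fractions of unwounded cells ran from 2 to 9 over settings that keep all libraries, and membrane partners after wounding in the total fraction from 1 to 9. The cause of these changes was not tested. Depth limits Itga2 and Itga5, at 0 to 34 and 13 to 90 counts.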
